A study of Mus musculus with 8 samples.

Results

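The 8 genes described here encode transcription factors and co-regulators of the ovulatory response: Runx1 and Runx2, their partner Cbfb, the CCAAT/enhancer-binding protein (C/EBP) genes Cebpa, Cebpb and Cebpd, the co-regulator Nrip1 and the steroidogenic factor Nr5a1. They were chosen by symbol, without a threshold on any measured value but with earlier results of these data known. They come from the 41591 gene IDs of the count tables, and all 8 were among the 16870 genes with enough counts to be tested. RNA had been sequenced from 8 whole ovary samples of female C57BL/6 mice about 3 weeks old. The DKO group held 4 ovary samples labelled as an Insr-Igf1r double knockout, made by conditional deletion of the genes for the receptors of insulin (Insr) and insulin-like growth factor 1 (Igf1r). The Control group held 4 samples from littermates whose genotype label gives wild type with Pgr-Cre, a recombinase expressed under the control of Pgr, the gene of the progesterone receptor. The DKO genotype label does not name a Cre. All mice had received eCG (equine chorionic gonadotropin, 4 IU), a stimulus of follicle growth, followed after 48 h by hCG (human chorionic gonadotropin, 5 IU), which acts in place of the surge of luteinizing hormone (LH). Ovaries were collected 12 h after hCG, so that the values compare the genotypes at 1 time and do not measure the response to hCG itself.

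RUNX proteins bind DNA through a Runt domain, and CBFB binds no DNA itself but stabilises that contact. C/EBP proteins are leucine zipper factors that pair with each other, and in mice Cebpa and Cebpb in granulosa cells are needed for ovulation and luteinization. Nrip1 encodes RIP140, a co-regulator of nuclear receptors without which mouse follicles luteinize but fail to release the oocyte, and Nr5a1 encodes SF-1, a nuclear receptor that activates genes of steroid production. In rodents the LH surge induces Runx1, Runx2 and Cebpb in granulosa cells of the preovulatory follicle, and it also switches on Pgr there, so that a Pgr-driven Cre acts in those cells and not in the whole ovary.

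Runx1, the RUNX factor best known from blood formation, lies on chromosome 16 from 92601466 to 92826074 on the minus strand in GRCm38.p5, with 7378 bases of exon. The gene has a pair of start sites in the RefSeq promoter table (GRCm38.p6), 128745 bases apart, and the deposited count sums reads from both. The 250 bases before each start are shown with those of Runx2, because these genes were the members with matches to the motifs searched for here. Capitals mark the matches that lie before the start. The first Runx1 window is chr16:92826075-92826324, the second is chr16:92697330-92697579 and that of Runx2 is chr17:44814628-44814877, all on the minus strand and written 5′ to 3′.
Runx1 upstream start: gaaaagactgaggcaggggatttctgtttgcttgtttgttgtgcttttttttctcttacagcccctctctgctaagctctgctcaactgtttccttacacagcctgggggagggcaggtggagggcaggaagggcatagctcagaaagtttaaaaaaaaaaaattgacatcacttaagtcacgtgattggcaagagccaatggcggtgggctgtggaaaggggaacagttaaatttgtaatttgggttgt
Runx1 downstream start: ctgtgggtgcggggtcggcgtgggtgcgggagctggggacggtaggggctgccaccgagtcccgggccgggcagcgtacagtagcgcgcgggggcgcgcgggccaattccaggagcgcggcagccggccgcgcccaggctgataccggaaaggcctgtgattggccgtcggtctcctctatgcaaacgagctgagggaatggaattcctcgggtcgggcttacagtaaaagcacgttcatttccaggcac
Runx2: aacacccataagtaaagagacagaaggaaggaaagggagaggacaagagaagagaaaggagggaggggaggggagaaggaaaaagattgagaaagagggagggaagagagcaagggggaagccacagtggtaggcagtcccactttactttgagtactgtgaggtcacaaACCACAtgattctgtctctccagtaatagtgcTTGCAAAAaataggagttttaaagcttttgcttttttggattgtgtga
The motifs were TGTGGT for RUNX, TTGCNNAA for C/EBP, AAGGTCA for NR5A receptors, TGACGTCA for the cyclic AMP response element and GTAAACA for FOXO factors, searched on both strands. Promoters were listed for 6 of the 8 genes (all but Cebpd and Nr5a1), 8 in all, each with 250 bases before and 50 after the start. Over these 300 bases the upstream Runx1 promoter held the RUNX letters at 2 places, neither wholly before the start. The Runx2 promoter held them at 3 places, 1 of them wholly before the start, and the C/EBP letters at 1. The other 6 promoters held none of the 5 motifs. Before the start, the Runx2 window held the RUNX letters on the opposite strand, 80 to 75 bases upstream, and the C/EBP letters 48 to 41 bases upstream, without overlap, and neither Runx1 window held a match. Among all 32851 promoters in the table, the 300 bases held the RUNX letters in 16.8%, the C/EBP letters in 10.8%, the NR5A letters in 4.72%, the cyclic AMP letters in 1.79% and the FOXO letters in 3.65%. In the 250 bases before the start these shares were 14%, 9.56%, 4.08%, 1.55% and 3.17%, in the same order. These matches describe letters and do not show binding.

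Runx1 (gene ID 12394) was lower in the DKO ovaries and was the 1 member that passed the test. Its CPM values, which are counts scaled to a fixed library total with TMM factors, were 166.5, 212, 194 and 270.3 in DKO ovaries 1 to 4, against 321, 337, 372 and 359 in Control ovaries 1 to 4. Every DKO ovary lay below every Control ovary. The mean was 211 ± 43.9 CPM in DKO and 347 ± 22.8 CPM in Control (SD, n = 4 each), a difference of -39.3% of the Control mean. The log2 fold change of DKO over Control was -0.72 ± 0.15 (SE), with an adjusted p of 0.0498 by edgeR's quasi-likelihood test over all genes. An exact two-sided permutation test of the mean CPM gave p = 0.0286, the smallest that 4 against 4 samples allow. A gene is called below when its adjusted p is under 0.05, which 212 of the 16870 tested genes reached (1.26%), 84 of them lower (0.498%) and 128 higher (0.759%) in DKO. At an unadjusted p under 0.05 the share was 15.4%. The groups did not overlap in CPM for 9.24% of tested genes, with DKO below in 3.54% and above in 5.7%. Among the 8 members, 1 was called and 1 did not overlap, and in both cases it was Runx1. In whole ovary RNA, fewer cells of a type and less RNA per cell cannot be told apart. The labels do not say whether an ovary sample came from 1 animal, so the p-values measure the spread between these samples.

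The call of Runx1 sat close to the threshold. The adjusted p (edgeR) was 0.0344 without DKO 4, but 0.115, 0.132 and 0.167 without DKO 1, 2 and 3, and 0.0579, 0.178, 0.0565 and 0.144 without Control 1, 2, 3 and 4. Its log2 fold change kept its sign in these 8 fits, at -0.86 to -0.62. The sample titles carry numbers whose meaning the labels do not give, and a late run of these numbers holds DKO 3 and 4 and Control 2, 3 and 4. Within that title run the log2 fold change of Runx1 was -0.60 with an adjusted p (edgeR) of 0.201, so the direction held there and the call did not.

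**Figure D1:**
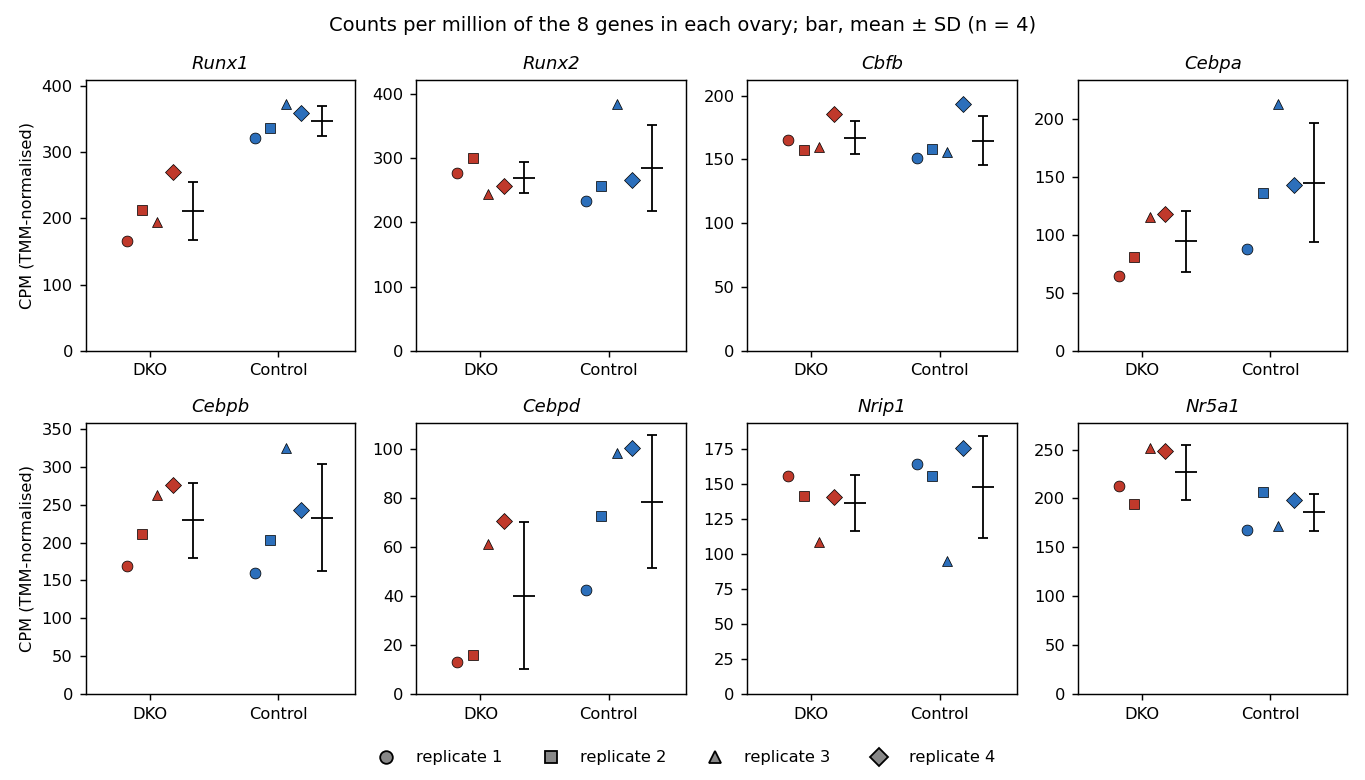
CPM (TMM-normalised, linear axis from 0) of each of the 8 genes in each ovary, DKO on the left in red and Control on the right in blue, with a marker shape for each replicate number and a bar for the mean ± SD of 4. Runx1 is the gene whose groups do not overlap, at 166.5 to 270.3 CPM in DKO and 321 to 372 CPM in Control.

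Runx2 (gene ID 12393, chromosome 17, 44495986 to 44814831, minus strand), known as the master factor of bone formation and also induced in granulosa cells at ovulation, did not pass the test. It was at 277, 299.9, 244 and 257 CPM in DKO ovaries 1 to 4, and at 233, 256, 384 and 266 CPM in Control ovaries 1 to 4. The DKO values lay inside the Control range, whose upper end was Control 3. DKO over Control, the log2 fold change was -0.08 ± 0.16, with an adjusted p (edgeR) of 0.862. Cbfb (gene ID 12400, chromosome 8, 105170674 to 105217989, plus strand), the shared partner subunit, had the smallest spread of the 8 genes. Its CPM was 165, 158, 160.0 and 186 in DKO ovaries 1 to 4, and 151, 158, 156 and 193 in Control ovaries 1 to 4. Its highest value fell in ovary 4 of each group and the groups overlapped. For Cbfb the log2 fold change was 0.02 ± 0.11, with an adjusted p (edgeR) of 0.951.

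Cebpa (gene ID 12606, chromosome 7, 35119293 to 35121928, plus strand), a factor of fat, liver and myeloid differentiation, consists of 1 exon. It stood at 64.3, 81.1, 115 and 118 CPM in DKO ovaries 1 to 4, against 88.1, 136, 213 and 143 CPM in Control ovaries 1 to 4. Control 1 lay among the DKO values and the other Control ovaries above them all. The mean was 94.6 ± 26.2 CPM in DKO and 145 ± 51.3 CPM in Control (SD, n = 4 each). The log2 fold change was -0.62 ± 0.28, which did not pass the test (adjusted p by edgeR 0.336). It ranged from -0.78 without Control 1 to -0.37 without Control 3.

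Cebpb (gene ID 12608, chromosome 2, 167688915 to 167690432, plus strand), an immediate target of gonadotropin and cytokine signals, did not pass the test either. Its CPM was 168, 211, 262.9 and 276 in DKO ovaries 1 to 4, and 159.8, 203, 326 and 243 in Control ovaries 1 to 4. The groups covered nearly the same range. For Cebpb the log2 fold change was -0.02 ± 0.23, with an adjusted p (edgeR) of 0.976, and it took either sign under other settings.

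Cebpd (gene ID 12609, chromosome 16, 15887286 to 15889545, plus strand), a factor of the acute-phase and inflammatory response, varied most between ovaries. It was at 13.0, 15.8, 61.1 and 70.7 CPM in DKO ovaries 1 to 4, against 42.6, 72.8, 98.5 and 101 CPM in Control ovaries 1 to 4. DKO 1 and 2 lay far below the other DKO ovaries, and DKO 3 and 4 lay between Control 1 and Control 2. For Cebpd the log2 fold change was -0.97 ± 0.58, with an adjusted p (edgeR) of 0.490. DKO 1 and 2 were also the libraries in which the ribosomal gene Rn18s-rs5 took 2.45% and 2.32% of counts, against 0.113% to 0.263% in the other 6, and their title numbers are neighbours outside that run. Without these 2 libraries the log2 fold change of Cebpd was -0.23, that of Cebpa -0.30 and that of Runx1 -0.56, with adjusted p (edgeR) of 0.878, 0.822 and 0.259. Within the title run that of Cebpd was -0.44. Cebpd shares 322 exon bases with Spidr on the opposite strand, and the reads were counted by strand per the file headers.

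Nrip1 (gene ID 268903, chromosome 16, 76287403 to 76374004, minus strand) did not pass the test. Its CPM was 156, 141, 108 and 140.3 in DKO ovaries 1 to 4, and 164, 156, 95.03 and 176 in Control ovaries 1 to 4. Ovary 3 was the lowest of each group, and the DKO values lay inside the Control range. Its log2 fold change was -0.12 ± 0.19, with an adjusted p (edgeR) of 0.827, and it was -0.28 without Control 3 and -0.01 without DKO 3.

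Nr5a1 (gene ID 26423, chromosome 2, 38692656 to 38714559, minus strand) was the member with the highest positive difference, and it did not pass the test. It stood at 213, 194, 252.004 and 248.8 CPM in DKO ovaries 1 to 4, and at 168, 206, 172 and 198 CPM in Control ovaries 1 to 4. DKO 2 was the lowest DKO ovary and lay below Control 2 and Control 4. The mean was 227 ± 28.2 CPM in DKO and 186 ± 19.0 CPM in Control (SD, n = 4 each). The log2 fold change was 0.29 ± 0.12, with an unadjusted p of 0.0394 and an adjusted p of 0.290 by edgeR.

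**Figure D2:**
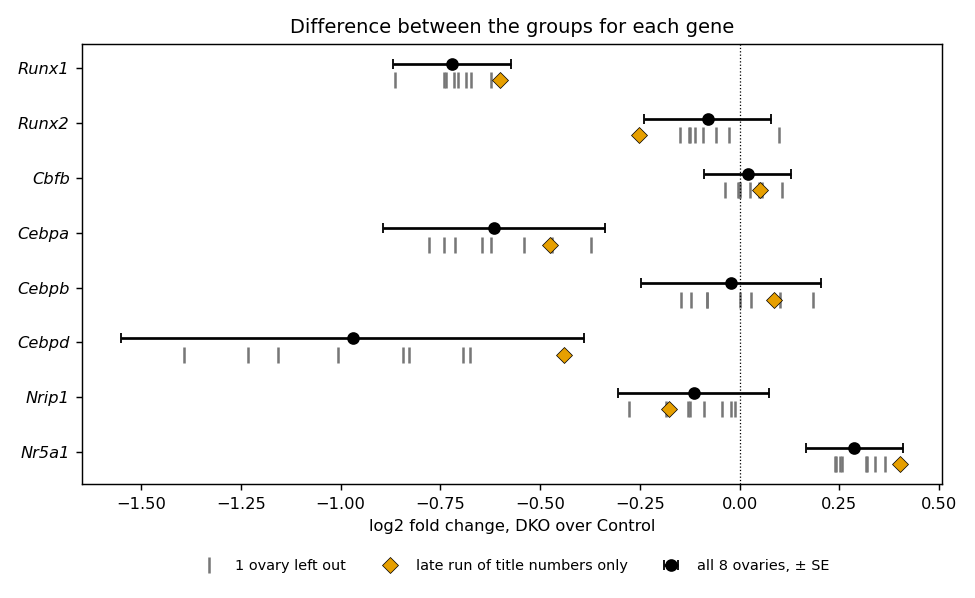
log2 fold change of DKO over Control for each of the 8 genes with all ovaries (black point, ± SE), with 1 ovary left out (grey ticks) and within the title run (orange diamond); the dotted line marks 0. Runx1 stays between -0.86 and -0.60 in all of these fits, while the ticks of Runx2, Cbfb and Cebpb fall on both sides of 0.

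The members did not vary in the same ovaries to the same degree. Across the 8 ovaries the root mean square (RMS) deviation of log2 CPM from the gene's own mean was 1.07 for Cebpd, 0.51 for Cebpa, 0.42 for Runx1, 0.33 for Cebpb, 0.29 for Nrip1, 0.21 for Runx2, 0.20 for Nr5a1 and 0.12 for Cbfb. The coefficient of variation of Runx1 was 20.8% in DKO and 6.57% in Control. That of Cebpd was 74.8% in DKO and 34.5% in Control. The 3 C/EBP genes put the DKO ovaries in the same order of CPM, with DKO 1 lowest and DKO 4 highest. Control 1 was the lowest Control ovary for 7 of the 8 genes, the exception being Nrip1. Genes measured in the same library share its depth and handling, so these orders are only a description.

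Levels of different genes were compared per length, as RPKM, the CPM divided by the kilobases of exon. Cebpb had the highest level, 151 ± 32.6 RPKM in DKO and 153 ± 46.5 RPKM in Control (SD, n = 4 each), above 97.9% of tested genes in each group. Cbfb followed at 57.4 ± 4.44 RPKM in DKO and 56.6 ± 6.56 RPKM in Control, and Nrip1 was lowest at 9.17 ± 1.35 RPKM in DKO and 9.93 ± 2.43 RPKM in Control. Runx1 held rank 6 of the 8 in DKO, at 28.6 ± 5.95 RPKM, and rank 4 in Control, at 47.1 ± 3.09 RPKM. The level of Runx2 was 31.4 ± 2.84 RPKM in DKO and 33.1 ± 7.87 RPKM in Control, that of Nr5a1 46.8 ± 5.80 RPKM in DKO and 38.3 ± 3.92 RPKM in Control. Cebpa was at 35.9 ± 9.96 RPKM in DKO and 55.05 ± 19.5 RPKM in Control, and Cebpd at 17.8 ± 13.3 RPKM in DKO and 34.8 ± 12.0 RPKM in Control. In DKO the order was Cebpb, Cbfb, Nr5a1, Cebpa, Runx2, Runx1, Cebpd, Nrip1, and the ranges of neighbours were separate only between Cebpb and Cbfb and between Cbfb and Nr5a1. In Control it was Cebpb, Cbfb, Cebpa, Runx1, Nr5a1, Cebpd, Runx2, Nrip1, with separate ranges only between Cebpb and Cbfb, between Runx1 and Nr5a1 and between Runx2 and Nrip1.

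**Figure D3:**
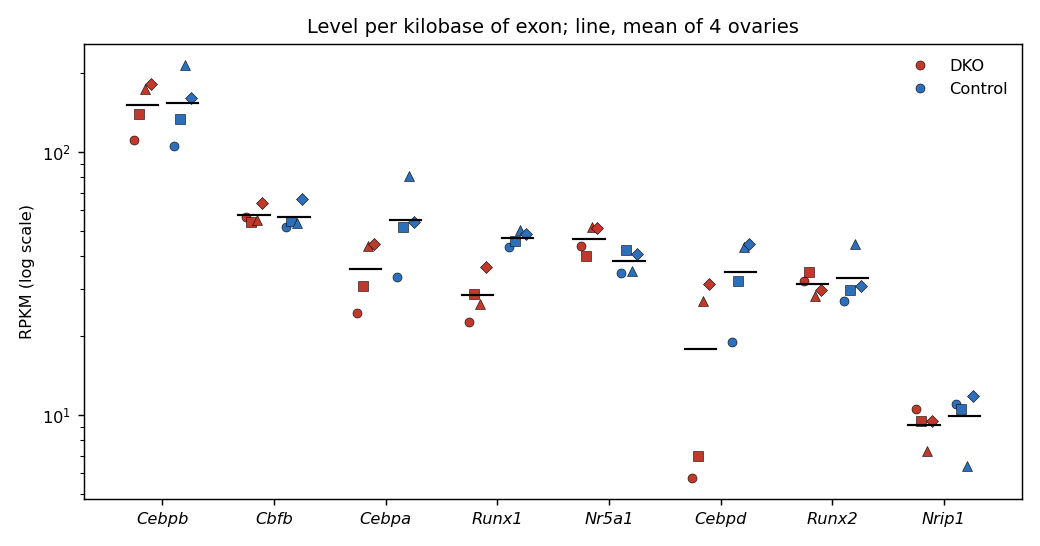
RPKM (log axis) of each gene in each ovary, DKO in red to the left of Control in blue, with a line at the mean of 4 ovaries and genes ordered by their mean level in Control. Cebpb lies above 100 RPKM in all 8 ovaries, and Nrip1 lies near 10 RPKM in both groups.

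Ratios between members within a library do not depend on the library's scaling, and all 28 pairs were compared. The groups did not overlap in 7 pairs, 4 of which contained Runx1. Each of the 7 had an exact two-sided permutation p of 0.0286, the smallest possible, and 0.114 after Benjamini-Hochberg adjustment over the 28 pairs, so none passed the correction. The ratio of Cebpa to Cebpb was 0.220, 0.221, 0.252 and 0.246 in DKO ovaries 1 to 4, against 0.317, 0.387, 0.376 and 0.339 in Control ovaries 1 to 4. It was lower in 4 of 4 DKO ovaries than in any Control ovary, at 0.235 ± 0.0167 in DKO and 0.355 ± 0.0323 in Control (SD, n = 4 each), although each gene alone overlapped between the groups. The ratio of each tested gene to Cebpb was without overlap for 4.04% of genes, and to Cebpa for 7.63%. Cebpb over Cebpd was higher in DKO, at 19.3, 19.9, 6.40 and 5.81 in DKO ovaries 1 to 4 and 5.58, 4.15, 4.92 and 3.59 in Control ovaries 1 to 4. The gap between DKO 4 and Control 1 was small, and the high ratios belonged to DKO 1 and 2. To Cebpd, 4.05% of tested genes had a ratio without overlap.

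For the RUNX subunits, Runx1 over Cbfb was 0.496 ± 0.0757 in DKO and 0.838 ± 0.0848 in Control (SD, n = 4 each), with no overlap. Runx1 over Runx2 was 0.700, 0.825, 0.925 and 1.22 in DKO ovaries 1 to 4, against 1.605, 1.53, 1.13 and 1.57 in Control ovaries 1 to 4. Runx2 was thus the more abundant RUNX message per length in 3 of 4 DKO ovaries, and Runx1 in 4 of 4 Control ovaries. DKO 4 and Control 3 overlapped, and the exact permutation p was 0.0571, or 0.178 adjusted over the 28 pairs. The share of tested genes without overlap was 50.5% for ratios to Runx1, which differed between the groups itself, 7.67% for ratios to Cbfb and 5.71% for ratios to Runx2. The other pairs without overlap were Runx1 over Cebpb, Nrip1 and Nr5a1, and Cebpa over Nr5a1, each lower in DKO. For ratios to Nrip1 the share was 3.03% and for ratios to Nr5a1 it was 19.5%.

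**Figure D4:**
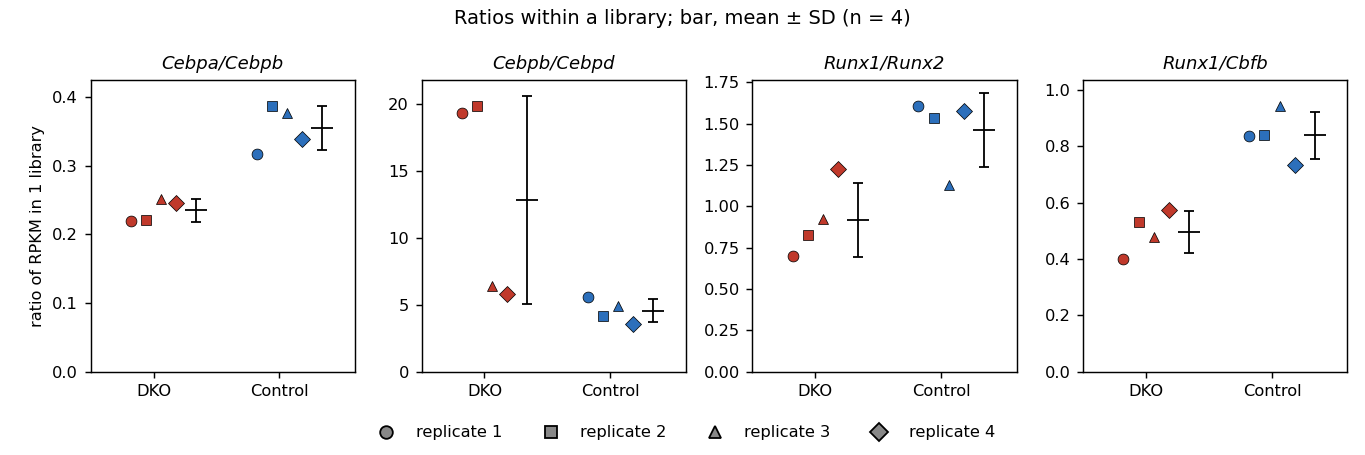
Ratios of RPKM within each library for 4 pairs of genes (linear axes from 0), DKO on the left in red and Control on the right in blue, with a marker shape for each replicate number and a bar for the mean ± SD of 4. Cebpa/Cebpb and Runx1/Cbfb are lower in every DKO ovary, while the high DKO mean of Cebpb/Cebpd rests on ovaries 1 and 2.

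For each member, the 3 named genes whose log2 CPM followed it most closely over the 8 ovaries were taken from the 11267 genes averaging 5 CPM or more. Closeness was the RMS difference between the centred profiles, and it is given without a test. For Runx1 these were Ttpal (0.079), Rnf217 (0.094) and Pla2g15 (0.097), against a deviation of Runx1 itself of 0.42. Pla2g15, a lysosomal phospholipase gene, was called lower in DKO (log2 fold change -0.75, adjusted p by edgeR 0.0349). Ttpal (0.0562) and Rnf217 (0.0582) were not called. The profiles include the difference between the groups, so a fold change near that of Runx1 follows from how these genes were chosen. For Cebpa they were Vasn (0.11), Thy1 (0.12) and Efs (0.12), and for Cebpb Adcy4 (0.094), Tgfb1 (0.12) and Lims2 (0.12). For Cebpd they were Rdh10 (0.16), Arid5a (0.20) and the immediate early gene Fos (0.22), against a deviation of Cebpd of 1.07. The closest to Runx2 were Mrfap1 (0.061), Med31 (0.065) and Anxa2 (0.071), to Cbfb Rab10 (0.026), Hnrnpm (0.031) and Atxn7l3b (0.032), to Nrip1 Pacs2 (0.067), Zik1 (0.068) and Rcor3 (0.073), and to Nr5a1 Macrod2 (0.041), Abtb2 (0.071) and Vash1 (0.073). No member was among the closest genes of another.

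Other genes of the same families and their cofactors showed no call. Of 22 listed, 21 were tested, and 0 were called in either direction by edgeR, with 15 below 0 and 6 above. Their median log2 fold change was -0.03, beside -0.02 for all genes tested. At an unadjusted p under 0.05 there were 5, and DESeq2 called 3, limma-voom 0 and limma-voom with quality weights 4. The smallest adjusted p belonged to Ddit3, the stress-induced C/EBP family member CHOP, at 20.9 ± 1.45 CPM in DKO and 13.6 ± 1.94 CPM in Control (log2 fold change 0.62 ± 0.13, adjusted p by edgeR 0.0562). Nr0b2, which encodes the nuclear receptor repressor SHP, was at 7.35 ± 0.806 CPM in DKO and 3.90 ± 1.23 CPM in Control (log2 fold change 0.91 ± 0.24, adjusted p 0.101). Runx3, the other RUNX gene, was listed at 0 counts in all 8 libraries. Its row, like that of Jund, holds exons on 2 sequences of the assembly, so no level is given for either.

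Of 28 other transcription factor genes of the ovulatory response, 27 were tested, 1 was called lower and 0 were called higher in DKO. That gene was Hif1a, the oxygen-regulated factor, at 427, 368, 366 and 461 CPM in DKO ovaries 1 to 4, against 598, 653, 596 and 771 CPM in Control ovaries 1 to 4. All DKO values lay below all Control values. Its log2 fold change was -0.69 ± 0.13 with an adjusted p (edgeR) of 0.0414, and it was called without Control 1 (0.0413) or Control 3 (0.0300) but not in the other 6 fits that left out 1 ovary (0.0513 to 0.152). In the list 23 genes lay below 0 and 4 above, where 53.1% of all tested genes lay below 0. Genes of a list can vary together across ovaries, so such counts are not separate observations. The list's median log2 fold change was -0.54 beside -0.02 for all genes. That median was -0.30 within the title run, -0.17 without DKO 1 and 2, -0.32 without DKO 2 alone and -0.35 without Control 4. Pgr itself was at 1.12, 2.33, 1.29 and 1.69 CPM in DKO ovaries 1 to 4 and 5.59, 4.92, 2.42 and 6.50 CPM in Control ovaries 1 to 4. The groups did not overlap, and the log2 fold change of -1.59 ± 0.36 did not pass the test (adjusted p by edgeR 0.0665).

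Genes tied to the members' action were read from lists drawn up from general knowledge, in which Ptgs2, Star, Cyp11a1, Cyp19a1 and Lhcgr each stand in more than 1 list. Of 10 genes tied to RUNX factors in rodent granulosa cells, 0 were called by edgeR, 7 lay above 0 and 3 below, and the median log2 fold change was 0.46. At an unadjusted p under 0.05 there were 4, all higher in DKO, and DESeq2 called 3, limma-voom 0 and limma-voom with quality weights 5. Cyp11a1, the side-chain cleavage enzyme that starts steroid synthesis, was at 7941 ± 479 CPM in DKO and 4560.5 ± 1280.5 CPM in Control (log2 fold change 0.80 ± 0.18, adjusted p 0.0704). Lhcgr, the LH receptor, was at 732 ± 121 CPM in DKO and 335 ± 138 CPM in Control (log2 fold change 1.13 ± 0.28, adjusted p 0.0893). Neither passed the test, and in both genes every DKO ovary lay above every Control ovary. This held for 4 of the 10 genes, beside 5.7% of all tested genes. Of 22 alternative fits, 6 called Cyp11a1 and 4 called Lhcgr.

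Of 5 genes tied to C/EBP factors, 1 was called lower and 0 were called higher in DKO, with 4 below 0. The list's median was -1.18 on the log2 scale, beside -0.76 within the title run and -0.54 without DKO 1 and 2. Such a median is the value of 1 gene, Hsd11b1 over all ovaries and another gene in the other fits. Hsd11b1 itself was at -1.15 within the title run and -1.08 without DKO 1 and 2. The called gene was Hsd11b1, which regenerates active glucocorticoid and is a C/EBP target in mouse liver. It was at 2.51, 3.21, 3.40 and 2.98 CPM in DKO ovaries 1 to 4, against 5.86, 6.50, 7.64 and 7.41 CPM in Control ovaries 1 to 4. The groups were apart by more than their own ranges. Its log2 fold change was -1.18 ± 0.19 with an adjusted p (edgeR) of 0.0288, which remained under 0.05 without Control 1 (0.0289) or Control 3 (0.0329) and was 0.0555 to 0.131 in the other 6 fits that left out 1 ovary. The cytokine gene Il6 was at 5.62 ± 4.77 CPM in DKO and 17.9 ± 12.4 CPM in Control, and its log2 fold change of -1.67 ± 0.82 did not pass the test (adjusted p 0.386). Without DKO 1 and 2 that of Il6 was -0.87.

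Of 7 genes tied to Nrip1 in mouse follicles, which include the EGF-like growth factors and cumulus matrix genes, 0 were called by edgeR and all 7 lay below 0, the median being -1.40 on the log2 scale. None of the 7 had an unadjusted p under 0.05, and 0 were called by DESeq2 or by limma-voom with or without quality weights. Btc, an EGF-like ligand, was at 3.45, 10.1, 23.2 and 39.3 CPM in DKO ovaries 1 to 4 and 17.4, 43.9, 60.6 and 81.7 CPM in Control ovaries 1 to 4, and the groups overlapped (log2 fold change -1.42 ± 0.72, adjusted p by edgeR 0.402). Ptx3, a structural protein of the cumulus matrix, was at 9.20 ± 5.28 CPM in DKO and 18.01 ± 11.3 CPM in Control (log2 fold change -0.97 ± 0.53, adjusted p 0.441). For Ptx3 the value was -0.46 without Control 3 and -0.37 without DKO 1 and 2, and for Btc it was -0.68 without DKO 1 and 2. As with Cebpd, DKO 1 and Control 1 were the lowest ovaries of their groups for both genes. The highest Control ovary was Control 3 for Ptx3 and Control 4 for Btc and Cebpd. The list's median was -0.76 within the title run and -0.54 without DKO 1 and 2. Over all ovaries its median gene was Ptgs2 (-1.40), which also stands in the C/EBP list, so the medians of these lists are not separate observations.

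Of 13 genes tied to Nr5a1 in steroid-producing cells, 1 was called higher and 0 were called lower in DKO, with 11 above 0 and a median log2 fold change of 0.42. Hsd3b1, which converts pregnenolone to progesterone and belongs to a family of near-identical genes whose reads could be shared, was at 5338, 4119.8, 5411 and 5129.8 CPM in DKO ovaries 1 to 4. In Control ovaries 1 to 4 it was at 2125, 2192, 3513 and 2791 CPM, all below the DKO values. Its log2 fold change was 0.91 ± 0.18 with an adjusted p (edgeR) of 0.0477, and it was 0.0135 without Control 3 and 0.0611 to 0.185 in the other 7 fits that left out 1 ovary. Scarb1, the receptor that takes up lipoprotein cholesterol, was at 2606 ± 635 CPM in DKO and 1298 ± 358 CPM in Control (log2 fold change 1.01 ± 0.23, adjusted p 0.0686). The list's median was 0.16 without Control 1 and 0.26 without DKO 1.

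**Figure D5:**
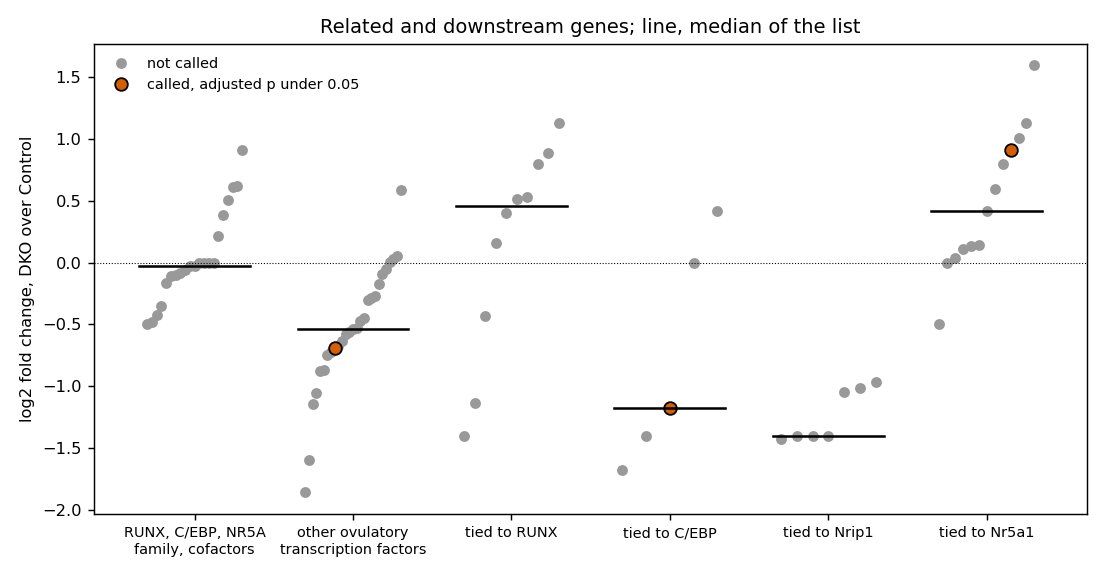
log2 fold change of DKO over Control for each tested gene of 6 lists, ordered within a list, with a line at the list's median and genes called at an adjusted p under 0.05 in orange; the dotted line marks 0. The called genes are Hif1a, Hsd11b1 and Hsd3b1, and all 7 genes tied to Nrip1 lie below 0 without a call.

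The libraries held 33145056 to 39257648 counts, and the members had 511 to 13963 counts each. Insr was at 126 ± 16.8 CPM in DKO and 155 ± 10.3 CPM in Control, and Igf1r at 214 ± 22.4 CPM in DKO and 236 ± 28.6 CPM in Control (SD, n = 4 each). Neither passed the test (adjusted p by edgeR 0.226 and 0.639), and counts over a whole gene cannot isolate a deleted exon in some of its cells. Markers of granulosa, theca and oocyte cells were present in all 8 libraries. Summed leukocyte markers (5 of 6 above 0, with Laptm5 listed at 0 and its row, too, on 2 sequences) were at 23.9 to 28.4 CPM in DKO and 30.7 to 39.9 CPM in Control, without overlap in the direction of Runx1, which blood cells also express, and all 5 tested lay below 0 (median log2 fold change -0.36). Neutrophil markers lay the same way, with all 6 tested of 8 below 0, a median of -1.59 and 5 at an unadjusted p under 0.05. Their sums were 5.91 to 8.53 CPM in DKO and 7.52 to 28.7 CPM in Control, overlapping, and the smallest adjusted p (edgeR) was 0.140, for S100a9. Ly6g was at 0 in all DKO libraries and in Control 2 and 4, at 0.215 and 0.165 CPM in Control 1 and 3, and was not tested. Smooth muscle markers lay that way too, with all 5 below 0, a median of -0.56 and 3 at an unadjusted p under 0.05. Their sums were 1430.0 to 2399 CPM in DKO and 1874 to 3485 CPM in Control, overlapping, and the smallest adjusted p (edgeR) was 0.198, for Des. Runx1, Cebpa and Cebpd also lay below 0, as did Runx2, Cebpb and Nrip1 by less, and 53.1% of all tested genes. Oocyte markers had all 7 below 0 (median -0.37) and macrophage markers 6 of 7 (median -0.07). Lymphocyte markers had 3 of 4 tested above 0 (median 0.35) and endothelial markers 6 of 7 (median 0.37). Adipocyte markers had 4 of 5 tested below 0 (median -1.09), with 1 gene of the set called higher in DKO. Below 0 were also 4 of 5 theca markers (median -0.15), all 5 oviduct markers (median -0.39) and 3 of 4 surface epithelium markers (median -0.10). The sums of each of these sets overlapped between the groups. The part of any marker set in the results of Runx1, Cebpa and Cebpd was not tested. The summed granulosa markers were at 3311 to 4334 CPM in DKO and 2768 to 3857 CPM in Control, overlapping. Of the 11, 7 lay above 0 and 4 below, with a median of 0.11. Oviduct markers were high in 2 libraries, led by Ovgp1 at 724 CPM in DKO 2 and 1147 CPM in Control 1, against 2.51 to 23.8 CPM in the other 6. Without those 2 libraries Runx1 had a log2 fold change of -0.74 and an adjusted p (edgeR) of 0.121.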

How the data were processed

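RNA sequencing of 8 whole ovary samples was analysed, 4 DKO and 4 Control, grouped by the sample descriptions. The values are raw counts per gene as deposited, 1 table for each library. Per the file headers, featureCounts (Subread 1.5.2) summed reads on RefSeq exons of GRCm38.p5 by gene ID with the reverse-stranded setting. Further tools named in the submitters' processing notes are STAR 2.4.2a, Trimmomatic 0.33 and 0.36, edgeR 3.12.0 and bcl2fastq 2.17.1.14, and GRCm38.p3 is a further build. Symbols came from a RefSeq table of GRCm38.p6, which matched 40290 of 41591 gene IDs (96.9%). Reduced chi-squares of 25.3 to 145 between libraries of a group were far above sampling noise, so all 8 counted as separate samples. Within DKO they were 34.3 between DKO 1 and 2 and 25.3 between DKO 3 and 4, against 109 to 145 for the other pairs. The main test did not model these pairs, whose title numbers are 201 and 202, and 249 and 252.

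Genes were kept by filterByExpr, scaled by TMM factors (0.943 to 1.06) and tested two-sided with edgeR 4.0.16 in R 4.3.3 (robust quasi-likelihood F-test, no covariate, Benjamini-Hochberg over 16870 genes, threshold 0.05). The common biological coefficient of variation was 0.281. The SE is the size of the log2 fold change over the square root of F. Single values were compared by exact permutation over 70 assignments. RPKM used the summed exon length and the TMM-scaled total. Profiles used log2 CPM with a prior count of 2. The code was tested on simulated data.

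The members and lists were chosen with earlier results of these data known. Named genes were the 8 members, Insr, Igf1r and Pgr, every called gene of the 6 lists and, in a list with fewer than 2 calls, the 2 genes with the smallest adjusted p, and the 3 genes closest to each member. Ovgp1, Rn18s-rs5, Runx3, Jund, Laptm5, Ly6g, S100a9, Des and the 5 genes named as standing in more than 1 list were named after their values were seen. Alternatives covered 3 other scalings, 2 other filters, DESeq2 1.42.0, limma 3.58.1 (voom, with and without quality weights), non-robust dispersions, a replicate block, the title numbers and each library left out, and, chosen after seeing the data, 2 fits that leave out a pair of libraries. Promoter sequences are from RefSeq (GRCm38.p6). Protein sequences were not analysed here.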

Additional observations from a re-analysis of the deposited data

Results flagged for a closer look

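A gap test (Dixon's, 95% level) was applied to 68 groups of 4 values, and 8 had a sample far from its neighbours, where chance gives about 1 in 20. Among the members this was Cbfb in Control, whose highest value, 193 CPM in Control 4, stood apart from 151 to 158 CPM in the other 3, with a gap of 0.833 of the range. The highest Igf1r value in DKO, 247 CPM in DKO 4, had a gap of 0.888. The highest Cyp11a1 value in Control, 6472 CPM in Control 3, had a gap of 0.886. Summed granulosa markers were highest in DKO 1 with a gap of 0.861 among DKO, and macrophage markers in Control 4 with a gap of 0.963 among Control. Oviduct markers had gaps of 0.991 in DKO (DKO 2) and 0.975 in Control (Control 1), and surface epithelium markers 0.976 in Control (Control 1).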

How the results depend on the processing

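The count of called genes was 212, and 1118 with DESeq2, 1651 with limma-voom and quality weights, 111 with a block for the run of title numbers, 97 without the libraries high in oviduct markers (DKO 2, Control 1) and 64 without those led by Rn18s-rs5 (DKO 1 and 2). With 1 library left out it was 78, 66, 9 and 113 without DKO 1 to 4 and 258, 2, 506 and 27 without Control 1 to 4. Members called were 1, but 0 with non-robust dispersions, within the late run of title numbers (DKO 3 and 4, Control 2 to 4), with the block for that run and in both fits without a pair of libraries, and 0 to 1 with 1 library left out. Runx1 kept its sign in all 22 alternatives and was called in 10 of them; its adjusted p (edgeR unless named) was 0.0548 with non-robust dispersions, 0.177 with the run as a block and 3.13e-04 with DESeq2. The cause of these differences was not tested. Same-numbered libraries did not deviate together in all 4 pairs (r of 0.156, -0.359, 0.312 and 0.468 for numbers 1 to 4), and 3 of the 4 DKO libraries matched their own number best; with the replicate block 743 genes and 2 members were called, Runx1 (adjusted p by edgeR 0.0212) and Cebpa (0.0340).

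With 1 library left out the log2 fold change of Runx2 was -0.15 to 0.099, that of Cbfb -0.035 to 0.11 and that of Cebpb -0.15 to 0.19. Those that changed sign, without a call, were Runx2 with quality weights (0.024) and without Control 3 (0.099); Cbfb without Control 1 (-0.0014), Control 3 (-0.0045) and DKO 4 (-0.035). Igf1r turned to 0.014 within the run. Cebpb turned positive with library size only (0.0010), limma-voom (0.0020), quality weights (0.15), the replicate block (0.0018), within the run (0.085), with the run as a block (0.067), without Control 3 (0.19), Control 4 (1.85e-04), DKO 1 (0.10) or DKO 2 (0.028), and without both DKO 1 and 2 (0.23). The 3 other scalings and 2 other filters changed no member's call. Called genes of the lists (family, ovulatory factors, RUNX, C/EBP, Nrip1, Nr5a1) were 0, 1, 0, 1, 0 and 1, but 3, 5, 3, 1, 0 and 4 with DESeq2, 4, 8, 5, 1, 0 and 5 with quality weights, and 3, 9, 2, 2, 3 and 4 with the replicate block. With that block Btc (adjusted p by edgeR 0.0207), Ptx3 (0.0295) and Il6 (0.0241) were called.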
